A study of Homo sapiens with 8 samples.

Results

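The p53 target genes described here are a list of 30 genes that act on p53 or are transcribed under its control, taken by symbol from the RNA table, and all 30 were among its 18892 genes. Of the 30, 27 passed a filter on low genes and were tested. C4-2 cells that carried a hairpin against CDCA8 (shCDCA8) were compared with cells that had a control hairpin (shCTRL). In shCDCA8, 5 of the 27 were higher and 6 lower, in the values as deposited and again after a rescaling between libraries. Of all 11833 genes tested, 2224 (18.8%) were higher and 3979 (33.6%) lower in both scales. The counts in each scale alone were 5 higher and 12 lower as deposited, where 18.8% of all genes tested were higher and 47.6% lower, and 9 higher and 6 lower after rescaling, where 33.2% and 33.6% were. ZMAT3, ASCC3, RRM2B, TRIAP1 and TP53INP1 were the higher genes, and GDF15, TNFRSF10B, DDB2, PHLDA3, TP53I3 and PERP the lower ones. Of the 4 genes that feed back on p53 itself, MDM2, MDM4 and PPM1D passed the test in neither scale, and CCNG1 was lower as deposited only.

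C4-2 is a human prostate cancer cell line, a derivative of LNCaP. All cells were grown in RPMI medium with serum and without further treatment, and 2 libraries of polyA RNA were sequenced for each hairpin. CDCA8 encodes borealin, a subunit of the complex that guides chromosomes through mitosis, and the labels name a single hairpin group against it, so that other effects of a hairpin and the loss of CDCA8 cannot be told apart. The labels do not say whether the libraries of a group came from separate cultures. The p-values therefore rest on the spread between these libraries, largely as shared across genes, and this spread may be technical. The small RNA libraries of the series hold none of these genes and were not used here.

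Values are RPM, reads scaled by a library total that the authors set. These totals are not given and were worked out from the step between the RPM values of each library. They came to between 46709612 and 55289855 reads. Reads recovered in the same way for the gene rows were 17406425 to 21920570. That was 41.1% and 43.6% of the total in shCTRL but 33.3% and 34.2% in shCDCA8. The whole table was therefore shifted, with a median log2 fold change of -0.27 over the 11833 genes that were kept (those with 1 RPM or more in 2 or more of the 4 libraries). For that reason each call is also given after median-ratio scaling, which centres each library on the typical gene and brings the median of all kept genes to 0.01. CDCA8 stood at 14.2 and 16.5 RPM in shCTRL and at 3.98 and 3.94 RPM in shCDCA8. Prostate epithelial markers such as KLK3, TMPRSS2 and HOXB13 were present in every library, summing over 9 genes to 3267 and 3416 RPM in shCTRL and to 1827 and 1938 RPM in shCDCA8. KLK3 gave much of that sum, and the list did not move one way: KRT8 was at 198 and 216 RPM in shCTRL and at 333 and 357 RPM in shCDCA8, KRT18 was also above both controls, and FOLH1 and EPCAM overlapped between groups. Markers of other cell types summed to much less. The 6 fibroblast markers reached 11.9 and 14.5 RPM in shCTRL against 4.59 and 5.30 RPM in shCDCA8, most of it COL1A1. The 4 matched leukocyte and endothelial markers reached 5.33 and 6.59 against 1.42 and 1.90 RPM, most of it VWF, and the 3 matched basal markers 6.64 and 7.19 against 2.83 and 3.36 RPM. CD3E, PECAM1, DCN, LUM and KRT15 were each at 0 in 1 or more libraries, no marker was at 0 in all 4, and the part of other cells in the results below was not tested.

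p53 is a transcription factor that is kept scarce by MDM2, a ubiquitin ligase, and by its relative MDM4. After DNA damage or other stress p53 is stabilised and binds DNA as a tetramer, at a pair of similar decamers that each have a C and a G around an A/T core, flanked by purines and pyrimidines. Its targets arrest the cell cycle, repair DNA, retune metabolism or start apoptosis, and several of them, MDM2 first, switch p53 off again. Many of these genes also answer to other transcription factors.

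The decamer pair is shown first, as the kind of sequence that p53 binds. The 30 genes were listed by symbol and not by this motif, and most of those searched had no close pair. Lines are printed for the 4 genes with up to 2 mismatches. GDF15, TRIAP1 and ZMAT3 were added by name and not by the closeness of their pairs. RefSeq promoters (GRCh38.p14, 250 bases before to 50 bases after a gene start) were listed for 24 of the 30 genes in 36 windows; ASCC3, PHLDA3, RRM2B, TNFRSF10B, TNFRSF10C and TP53INP1 had no entry. The motif searched was the named p53 decamer, which reads alike on both strands, in pairs with 0 or 1 base between them. Capitals mark the 2 decamers, and each line runs 5′ to 3′ on the gene's strand.

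DDB2, 0 mismatches, positions 6 to 26 from the start, chr11:47214724-47214999, plus strand: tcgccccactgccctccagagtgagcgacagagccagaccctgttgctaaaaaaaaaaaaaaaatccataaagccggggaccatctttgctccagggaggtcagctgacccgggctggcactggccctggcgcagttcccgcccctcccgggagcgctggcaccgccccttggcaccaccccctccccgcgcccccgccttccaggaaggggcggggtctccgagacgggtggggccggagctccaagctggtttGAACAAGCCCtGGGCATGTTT
MDM2, 2 mismatches, positions -94 to -75, chr12:68808903-68808962, plus strand: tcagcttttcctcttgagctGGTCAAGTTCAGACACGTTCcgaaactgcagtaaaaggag
AEN, 2 mismatches, positions -34 to -15, chr15:88621286-88621345, plus strand: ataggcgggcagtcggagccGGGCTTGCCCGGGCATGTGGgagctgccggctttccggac
FAS, 2 mismatches, positions -122 to -103, chr10:88991289-88991348, plus strand: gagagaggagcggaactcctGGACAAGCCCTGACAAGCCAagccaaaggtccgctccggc
GDF15, 3 mismatches, positions 29 to 48, chr19:18386184-18386207, plus strand: acAGCCATGCCCGGGCAAGAACtc
TRIAP1, 4 mismatches, positions 29 to 48, chr12:120446335-120446358, minus strand: ggAGGCATGCACGGACATGAAGcg
ZMAT3, 4 mismatches, positions -83 to -64, chr3:179071853-179071912, minus strand: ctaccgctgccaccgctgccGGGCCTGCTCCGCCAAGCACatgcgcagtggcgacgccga

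The DDB2 pair was complete, and 7 of all 35116 promoter windows held a complete pair (0.0199%). Up to 2 mismatches in the 20 bases were found in 4 of the 24 genes, DDB2, MDM2, AEN and FAS, against 461 of all 27305 genes listed (1.69%). The GDF15, TRIAP1 and ZMAT3 lines show only the closest pair in the window. FDXR, SESN1, SPATA18 and XPC, not printed, had pairs with 3 mismatches, closer than those of TRIAP1 and ZMAT3. Up to 3 mismatches were found in 9 of the 24 genes, against 11.9% of all genes listed. For up to 4 mismatches this was 15 of the 24, against 46.1%. Counted by window, 9.75% of all windows held a pair with up to 3 mismatches and 41.3% one with up to 4. A match is a description of the letters and not a measured binding site, and many p53 sites lie outside such windows. Of the 4 genes with a close pair, DDB2 fell, and MDM2, AEN and FAS were not called in the values as deposited, with log2 fold changes of -0.25, -0.15 and 0.25. After median-ratio scaling DDB2 was still lower (-0.62), FAS was called higher (0.46), and MDM2 (0.058) and AEN (0.16) were not called. Differences between these genes were not tested.

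Of the 30 genes, 27 were kept. The 3 others, SFN, TNFRSF10C and EDA2R, were under 1 RPM in every library and were not tested. A call is a limma adjusted p under 0.05 over all kept genes, and a log2 fold change is shCDCA8 minus shCTRL on the log2(RPM + 1) scale, which understates changes of low genes. In the values as deposited 5 of the 27 rose (18.5%) where 18.8% of all kept genes did, and 12 fell (44.4%) where 47.6% of all did. With median-ratio scaling 9 were called higher (33.3%) beside 33.2% of all kept genes, and 6 lower (22.2%) beside 33.6%. The shares of higher genes were thus near the background in both scales. The median log2 fold change of the 27 was -0.25 as deposited, beside -0.27 over all kept genes, and 0.06 after scaling, beside 0.01. The 2 libraries of one group did not overlap those of the other for 24 of the 27 genes (88.9%), against 83.2% of all kept genes. After median-ratio scaling this was so for 17 of the 27 (63.0%), against 84.2% of all kept genes. In bulk RNA of this kind, a change in every cell and a change in the share of cells that express a gene cannot be told apart.

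**Figure D1:**
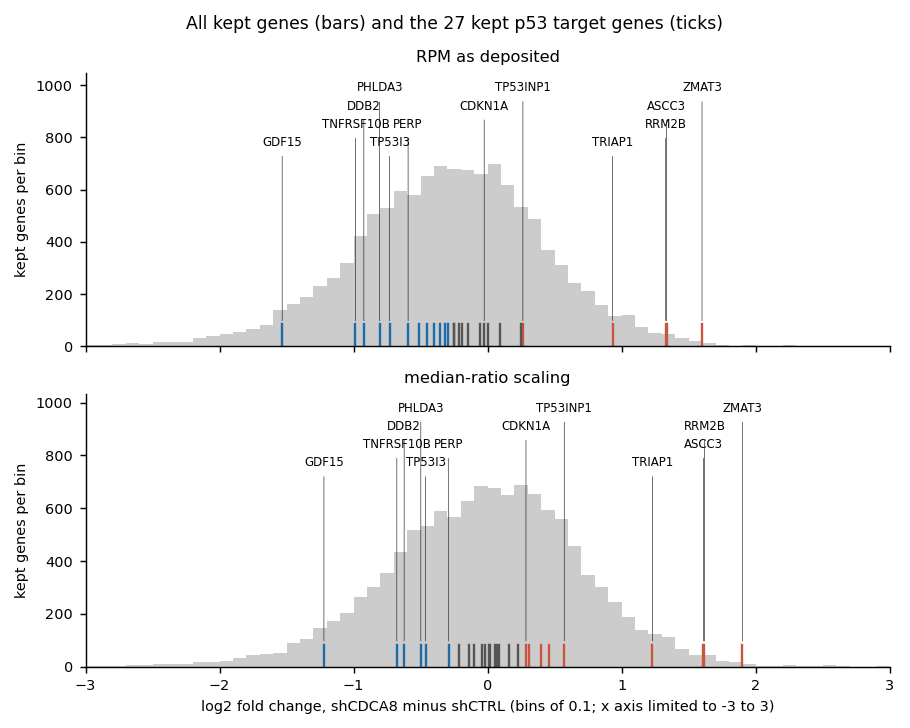
Number of kept genes per bin of log2 fold change (shCDCA8 minus shCTRL, grey bars) for RPM as deposited (top) and after median-ratio scaling (bottom), with a tick for each of the 27 kept p53 target genes (red called higher, blue called lower, dark grey not called) and names for 12 of them. The horizontal axis ends at -3 and 3. ZMAT3 lies far to the right at 1.599 and GDF15 on the left at -1.53, while CDKN1A lies at -0.03.

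Of the 4 genes that feed back on p53, 1 fell as deposited and none was called after median-ratio scaling. Over all kept genes 18.8% rose and 47.6% fell as deposited, and 33.2% were called higher and 33.6% lower after scaling. MDM2, the ligase, was at 107 and 86.4 RPM in shCTRL and at 81.7 and 79.5 RPM in shCDCA8. Both shCDCA8 libraries were below both controls, but 1 control stood close to them, and the difference of -0.25 ± 0.114 (log2, SE, 2 libraries a group) did not pass (limma adjusted p = 0.0689). Its 95% confidence interval, -0.50 to -0.0031, is not adjusted for the number of genes. MDM2 stood at -0.10 without shCTRL replicate 1, was called lower without shCTRL replicate 2 (-0.40, adjusted p = 0.0109) and stood at 0.058 after median-ratio scaling.

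MDM4, which binds and inactivates p53 without degrading it, was at 10.97 and 12.4 RPM in shCTRL and at 10.5 and 11.9 RPM in shCDCA8. The groups overlapped, with a log2 fold change of -0.06 and an interval from -0.35 to 0.23. PPM1D, the phosphatase WIP1 that removes damage-induced phosphates from p53 and its kinases, was at 12.3 and 13.3 against 11.4 and 10.3 RPM (log2 fold change -0.22, interval -0.50 to 0.06). With intervals of this width the data do not show that the 3 genes were equal between groups.

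CCNG1, cyclin G1, which recruits a phosphatase to MDM2, was the only called gene among these 4. It was at 129 and 102 RPM in shCTRL and at 97.2 and 82.8 RPM in shCDCA8. The groups lay next to each other without overlap, and it fell by 0.36 on the log2 scale (adjusted p = 0.0245). The call was lost without shCTRL replicate 1 (-0.19, adjusted p = 0.247), on leaving out shCDCA8 replicate 2 (-0.24, adjusted p = 0.114), without the filter on low genes and after median-ratio scaling (-0.05).

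Among the cell cycle genes, CDKN1A, the p21 inhibitor of cyclin-dependent kinases and the best known p53 target, was not called as deposited. It was at 335 and 323 RPM in shCTRL and at 323 and 324 RPM in shCDCA8. The 4 libraries lay within a few percent of each other, and the log2 fold change was -0.03 with an interval from -0.21 to 0.16 (adjusted p = 0.802). Relative to the table as a whole it was higher: after median-ratio scaling it was called at 0.29, except when shCTRL replicate 2 was left out (0.22).

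BTG2, an antiproliferative factor that recruits the deadenylase complex to mRNA, was at 67.6 and 65.8 RPM in shCTRL and at 52.3 and 45.1 RPM in shCDCA8. Both shCDCA8 libraries were clearly below the controls, and BTG2 fell by 0.45 (adjusted p = 0.00308). After median-ratio scaling it stood at -0.14 and was not called. PLK3, a stress-responsive kinase, was at 6.72 and 6.27 against 5.36 and 5.25 RPM and was not called (log2 fold change -0.25, adjusted p = 0.114). SFN, the 14-3-3 sigma protein that holds cells in G2, was barely present, at 0.300 and 0.300 RPM against 0.191 and 0.416 RPM, from 10 to 23 reads a library.

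**Figure D2:**
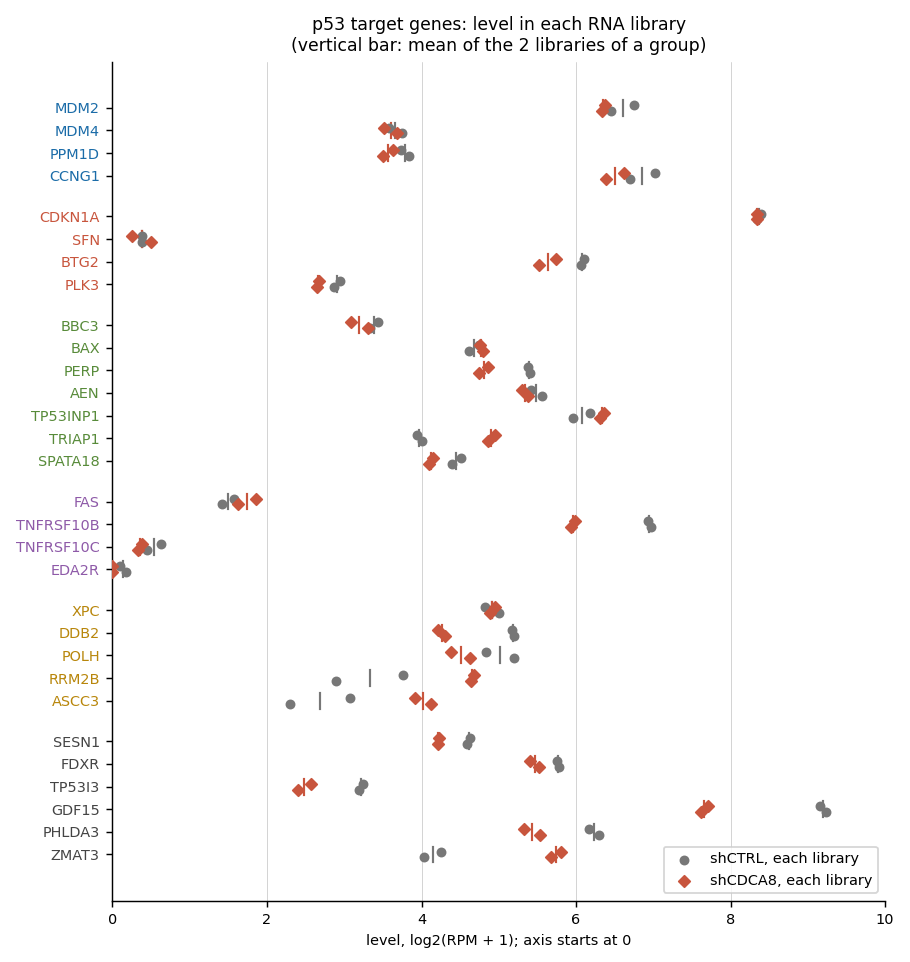
Level of the 30 p53 target genes in each of the 4 RNA libraries as log2(RPM + 1) (horizontal axis), with grey circles for shCTRL, red diamonds for shCDCA8 and a vertical bar at each group's mean; gene names are coloured by role (feedback, cell cycle, cell death, death receptors, DNA repair, other). The groups are far apart for GDF15, TNFRSF10B, DDB2, TRIAP1 and ZMAT3, and the controls of RRM2B and ASCC3 are far from each other.

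Of the 7 kept cell death genes, 2 rose and 2 fell as deposited, beside 18.8% and 47.6% of all kept genes. After median-ratio scaling 3 were called higher and 1 lower, beside 33.2% and 33.6% of all. BBC3 encodes PUMA, the BH3-only protein that unleashes BAX, and was at 9.87 and 9.10 RPM in shCTRL and at 7.50 and 8.88 RPM in shCDCA8. BAX, which forms pores in the outer mitochondrial membrane, was at 25.8 and 23.5 against 26.0 and 26.7 RPM. Neither passed the test (log2 fold changes -0.19, interval -0.49 to 0.11, and 0.09, interval -0.15 to 0.34). After median-ratio scaling BAX was called higher at 0.40, and not without shCTRL replicate 2 (0.30), while BBC3 stood at 0.087.

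TRIAP1 encodes a small protein that restrains apoptosis and carries lipid between mitochondrial membranes. It was at 14.4 and 15.0 RPM in shCTRL and at 29.9 and 28.0 RPM in shCDCA8, so that replicates were close and the groups far apart. TRIAP1 rose 1.97-fold in mean RPM, or by limma 0.93 ± 0.116 on the log2 scale (SE, 2 libraries a group, adjusted p = 2.5e-05), and 1.23 after median-ratio scaling. It was called higher in all 14 alternatives listed for it, 4 of which leave out a library.

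TP53INP1, a nuclear protein that promotes p53 activity and autophagy, was at 71.6 and 61.3 RPM in shCTRL and at 81.2 and 78.2 RPM in shCDCA8. The shCDCA8 libraries were above both controls by a small margin, and it rose by 0.26 (adjusted p = 0.0465). This call was lost without shCTRL replicate 2 (0.15, adjusted p = 0.371), shCDCA8 replicate 1 (0.24, adjusted p = 0.158) or shCDCA8 replicate 2 (0.29, adjusted p = 0.0686), and without the filter on low genes. After median-ratio scaling it was 0.57 and stayed called without any 1 library.

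PERP, a desmosomal membrane protein that takes part in p53-dependent death, went the other way. It was at 40.7 and 41.5 RPM in shCTRL and at 28.1 and 25.8 RPM in shCDCA8. The groups were well separated, and PERP fell by 0.59 (adjusted p = 0.000477), or by 0.29 after median-ratio scaling, a call that held in 1 of 4 fits that left out a library. SPATA18, a factor of mitochondrial quality control, was at 21.7 and 20.0 against 16.8 and 16.2 RPM and fell by 0.32 (adjusted p = 0.0315). That call was lost without shCTRL replicate 1, shCDCA8 replicate 1 or shCDCA8 replicate 2 (-0.26, -0.34 and -0.29) and after median-ratio scaling (-0.022). AEN, a nuclease that degrades DNA in apoptosis, was at 41.6 and 46.1 against 38.4 and 40.7 RPM and was not called (-0.15, interval -0.38 to 0.09).

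TNFRSF10B was the one death receptor gene at a high level. It encodes DR5, a receptor for the ligand TRAIL, and was at 121 and 124 RPM in shCTRL and at 62.3 and 60.3 RPM in shCDCA8. Replicates were close and the groups far apart. TNFRSF10B fell 2.00-fold in mean RPM, or by limma -0.99 ± 0.0953 on the log2 scale (SE, 2 libraries a group, adjusted p = 3.67e-06) and -0.68 after median-ratio scaling. It was called lower in all 14 alternatives.

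FAS, the receptor of Fas ligand, was low, at 1.99 and 1.67 RPM in shCTRL and at 2.64 and 2.10 RPM in shCDCA8, from 78 to 138 reads. Both shCDCA8 libraries were above the controls, but the test did not pass (0.25, interval -0.06 to 0.56). After median-ratio scaling it was called higher at 0.46, and not without shCTRL replicate 2 (0.36) or shCDCA8 replicate 1 (0.31). TNFRSF10C, a decoy receptor that binds TRAIL without a death domain, was at 0.544 and 0.364 against 0.306 and 0.253 RPM. EDA2R, a receptor of ectodysplasin, had 4 and 6 reads in shCTRL and 0 in both shCDCA8 libraries, where a count of 0 allows up to 3 reads. These counts are too small for a comparison, and a floor of this kind covers counting error only.

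**Figure D3:**
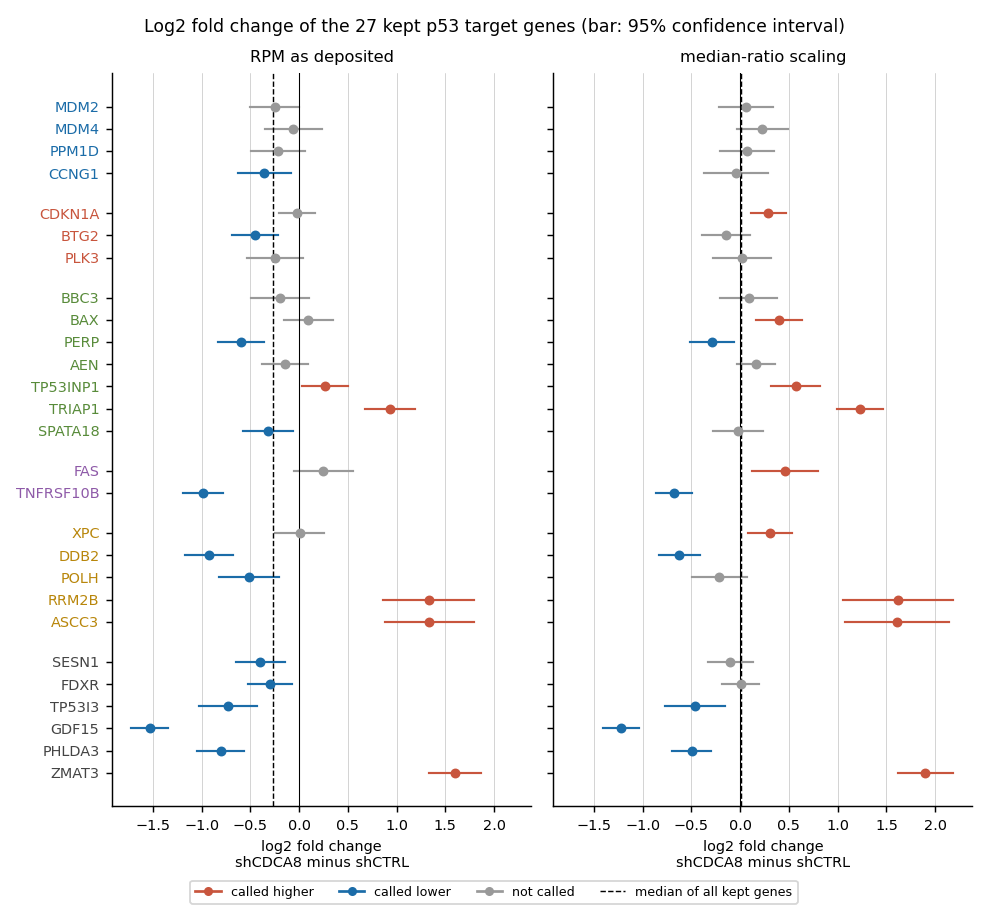
Log2 fold change (shCDCA8 minus shCTRL) with its 95% confidence interval for the 27 kept p53 target genes, as deposited (left) and after median-ratio scaling (right); red is called higher, blue called lower and grey not called, and the dashed line is the median of all kept genes. Scaling moves every gene to the right by about the same step, so that CCNG1, BTG2, SPATA18, POLH, SESN1 and FDXR lose their calls and CDKN1A, BAX, FAS and XPC gain one.

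Of the 5 repair genes, 2 rose and 2 fell as deposited, where 18.8% and 47.6% of all kept genes did. After median-ratio scaling 3 were called higher and 1 lower, where 33.2% and 33.6% of all were. RRM2B, the p53-induced subunit of ribonucleotide reductase that supplies nucleotides outside S phase, was at 12.5 and 6.44 RPM in shCTRL and at 24.6 and 23.9 RPM in shCDCA8. The controls lay far from each other, from 668 and 301 reads, yet both shCDCA8 libraries were well above them. RRM2B rose 2.55-fold in mean RPM (log2 fold change 1.33 ± 0.214, adjusted p = 0.000179). Without shCTRL replicate 1 the value was 1.76, and without shCTRL replicate 2 it was 0.90, with a call in both.

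ASCC3, a helicase that unwinds DNA for the repair of alkylated bases and also splits stalled ribosomes, had the same shape. It was at 7.43 and 3.92 RPM in shCTRL and at 14.1 and 16.4 RPM in shCDCA8. Again shCTRL replicate 1 lay nearer to the shCDCA8 libraries than replicate 2 did. ASCC3 rose 2.69-fold (log2 fold change 1.33 ± 0.208, adjusted p = 0.000142), between 0.95 and 1.72 when 1 library was left out. RRM2B and ASCC3 were each called higher in all 14 alternatives, and ranked 122 and 118 among the rises of all 11833 kept genes.

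DDB2, which carries the complete decamer pair printed above, moved in the opposite direction. It encodes the damage sensor that finds ultraviolet lesions in chromatin, and was at 35.1 and 35.7 RPM in shCTRL and at 17.6 and 18.8 RPM in shCDCA8. Replicates were close and the groups far apart. DDB2 fell 1.94-fold in mean RPM, or by limma -0.92 ± 0.112 on the log2 scale (SE, 2 libraries a group, adjusted p = 2.09e-05), -0.62 after median-ratio scaling, and was called lower in all 14 alternatives.

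XPC, the sensor that hands such lesions to the excision machinery, was at 27.2 and 31.1 against 29.9 and 28.5 RPM (log2 fold change 0.0043, interval -0.25 to 0.26). After median-ratio scaling it was called higher at 0.31, and not without shCTRL replicate 1 (0.25) or shCDCA8 replicate 1 (0.24). POLH, the polymerase that copies past ultraviolet lesions, was at 27.6 and 35.8 RPM in shCTRL and at 19.9 and 23.7 RPM in shCDCA8. It fell by 0.51 (adjusted p = 0.00711), was not called without shCTRL replicate 2 (-0.33, adjusted p = 0.0712) and stood at -0.21, not called, after median-ratio scaling.

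The last 6 genes act in metabolism, redox balance, signalling and RNA binding, and each of them was called in the values as deposited, 5 lower and 1 higher, where 47.6% and 18.8% of all kept genes were. After median-ratio scaling 3 were called lower and 1 higher, where 33.6% and 33.2% of all kept genes were. GDF15 is a secreted cytokine of the TGF-beta family that rises in many forms of cell stress, and had the largest fall of the 27. It was at 570.4 and 600.03 RPM in shCTRL and at 207 and 196 RPM in shCDCA8. No library came near the other group. GDF15 fell 2.90-fold in mean RPM, or by limma -1.53 ± 0.0861 on the log2 scale (SE, 2 libraries a group, adjusted p = 7.11e-08) and -1.22 after median-ratio scaling. It was rank 514 among the falls of all kept genes.

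PHLDA3, whose pleckstrin homology domain competes with the kinase AKT for membrane lipid, was at 71.1 and 77.3 RPM in shCTRL and at 39.0 and 45.2 RPM in shCDCA8. TP53I3, a quinone oxidoreductase linked to oxidative stress in p53-dependent death, was at 8.44 and 8.14 against 4.92 and 4.29 RPM. Both were separated from their controls in each library. PHLDA3 fell by 0.81 (adjusted p = 5.4e-05) and TP53I3 by 0.73 (adjusted p = 0.000494). After median-ratio scaling they stood at -0.50 and -0.46 and were still called, although TP53I3 was not once shCDCA8 replicate 2 was also left out (-0.35).

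SESN1, a sestrin that damps mTORC1 signalling, was at 23.8 and 23.1 RPM in shCTRL and at 17.6 and 17.5 RPM in shCDCA8. FDXR, the reductase that feeds electrons to mitochondrial ferredoxins, was at 52.9 and 53.7 against 41.5 and 44.8 RPM. The shCDCA8 libraries were below the controls in both genes. SESN1 fell by 0.40 (adjusted p = 0.00883) and FDXR by 0.30 (adjusted p = 0.0233), and after median-ratio scaling they stood at -0.10 and 0.0070 with no call. The FDXR call was also lost without shCTRL replicate 1 (-0.31), shCTRL replicate 2 (-0.29) or shCDCA8 replicate 1 (-0.24).

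ZMAT3, a zinc finger protein that binds RNA and alters its stability and splicing, had the largest rise of the 27. It was at 18.1 and 15.3 RPM in shCTRL and at 55.1 and 50.1 RPM in shCDCA8. Every shCDCA8 library was far above every control, from 967 and 715 reads in shCTRL and 2878 and 2770 in shCDCA8. ZMAT3 rose 3.14-fold in mean RPM, or by limma 1.599 ± 0.121 on the log2 scale (SE, 2 libraries a group, adjusted p = 5.94e-07), 1.90 after median-ratio scaling, and between 1.48 and 1.715 when 1 library was left out. It was rank 39 among the rises of all kept genes.

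**Figure D4:**
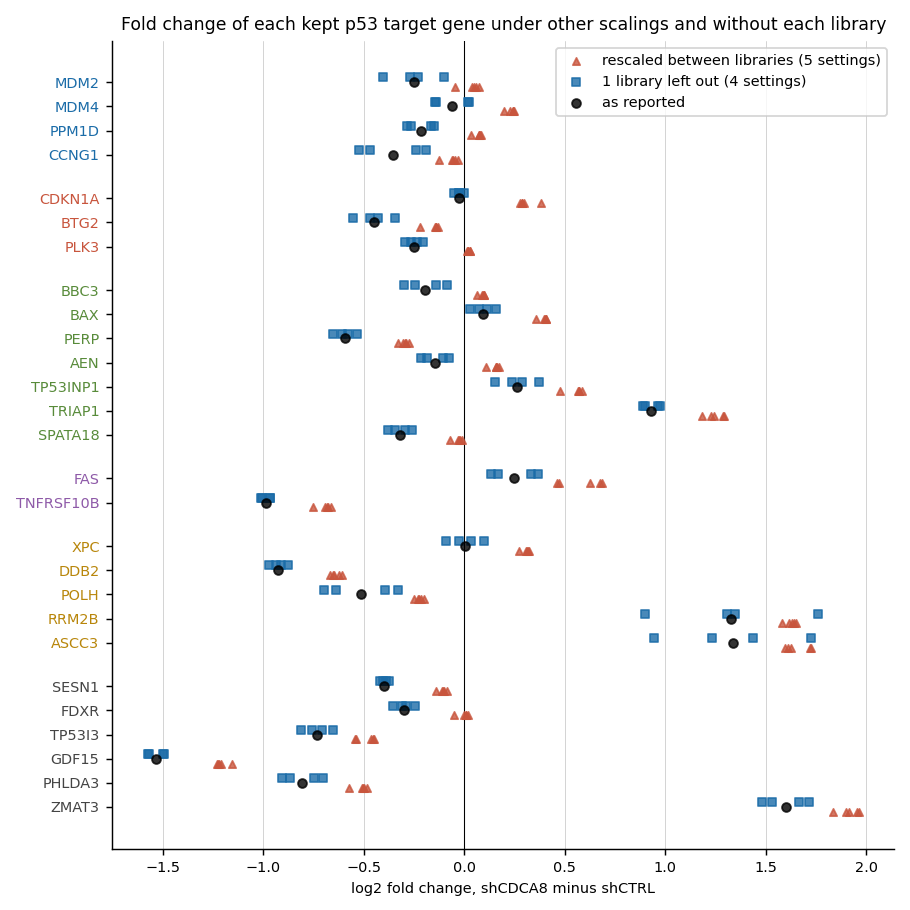
Log2 fold change (shCDCA8 minus shCTRL) of each kept p53 target gene as reported (black circles), in 5 settings that rescale the libraries (red triangles) and without each of the 4 libraries (blue squares). The values of ZMAT3, TRIAP1, RRM2B and ASCC3 stay right of 0 and those of GDF15, TNFRSF10B, DDB2, PHLDA3, TP53I3 and PERP left of 0, while MDM4, CDKN1A, BBC3 and AEN lie on both sides.

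A wider list of 70 further genes described as p53 targets, none of them among the 30, was read in the same way. Of 65 kept genes 10 rose (15.4%) and 37 fell (56.9%), beside 18.8% and 47.6% of all kept genes, and their median was -0.42 (log2) beside -0.27. After median-ratio scaling 15 were called higher (23.1%) and 29 lower (44.6%), beside 33.2% and 33.6% of all, with a median of -0.24 beside 0.01. The 5 rises of smallest p were ACER2, a ceramidase (9.62 ± 0.856 to 20.9 ± 1.72 RPM, SD, n = 2, log2 fold change 1.04), the chaperone gene HSPA4L (1.28), the ribosomal protein paralogue RPS27L (0.77), the signalling adaptor TRAF4 (0.62) and the glypican GPC1 (0.62). The 5 falls of smallest p were larger. DDIT4, an inhibitor of mTORC1, went from 115 ± 0.592 to 22.0 ± 1.46 RPM (-2.34), and SESN2, the stress-induced relative of SESN1, from 107 ± 8.17 to 25.8 ± 1.61 RPM (-2.001). The hydrolase CMBL (-1.80) and the kinase PLK2 (-1.83), a relative of PLK3, fell too. So did the sulfatase SULF2 (-2.19), which passed the filter only through its shCTRL libraries. SULF2 was at 5.18 and 5.91 RPM in shCTRL and at 0.536 and 0.326 RPM in shCDCA8, there from 28 and 18 reads. The size of its fall is therefore uncertain, with -3.38 by edgeR and -3.37 by DESeq2. All 10 named genes were called in the same direction after median-ratio scaling.

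Of 25 regulators of p53 outside the list, all kept, 3 rose (12%) and 13 fell (52.0%) as deposited, beside 18.8% and 47.6% of all kept genes (median -0.32 beside -0.27). After median-ratio scaling 8 were called higher (32.0%) and 7 lower (28.0%), beside 33.2% and 33.6% (median -0.0055 beside 0.01). The damage kinase ATR rose from 1.85 ± 0.676 to 5.09 ± 0.756 RPM (SD, n = 2, log2 fold change 1.11), the ubiquitin ligase gene RCHY1 by 0.68 and the deacetylase gene SIRT1 by 0.41. The SIRT1 call was lost without shCTRL replicate 2 (0.28), shCDCA8 replicate 1 (0.33) or the filter on low genes. The falls of smallest p were of HIPK2, a kinase that phosphorylates p53 (-0.78), the checkpoint kinase CHEK2 (-0.92), NUMB (-0.73), the matrix attachment protein BANP (-0.82) and RPL11, a ribosomal protein that binds MDM2 (-0.56). RPL11 was no longer called after median-ratio scaling (-0.24), and the other 4 were.

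**Figure D5:**
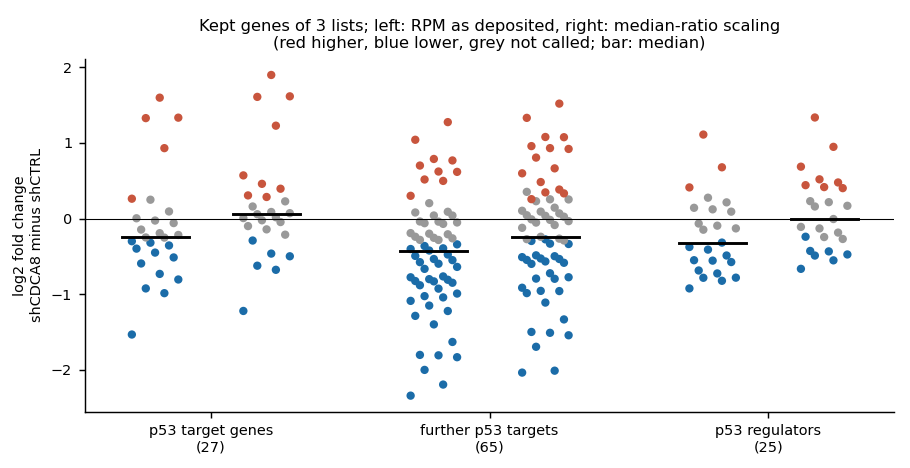
Log2 fold change (vertical axis, shCDCA8 minus shCTRL) of each kept gene in the 3 lists, as deposited (left of each pair) and after median-ratio scaling (right of each pair), with red for called higher, blue for called lower, grey for not called and a bar at the median. The medians as deposited are -0.25 for the p53 target genes, -0.42 for the further targets and -0.32 for the regulators.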

How the data were processed

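The authors deposited RPM values for 18892 genes in 4 polyA RNA libraries. TopHat, HTSeq, edgeR, cutadapt and the build hg19 are listed in the submitters' processing notes, without roles or versions. For the annotation and the strand setting of the counting, no source used here gives them. Reads of genes that overlap a neighbour (in RefSeq, MDM2 with CPM, CCNG1 with NUDCD2, TP53INP1 with NDUFAF6, FAS with ACTA2, TNFRSF10B with RHOBTB2, POLH with GTPBP2, SESN1 with ARMC2 and TP53I3 with FAM228B) are therefore uncertain. All RPM values above 0 (100%) were within 0.01 of a whole multiple of 1 step per library, so whole reads were recovered for the count tools.

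Log2(RPM + 1) values of 11833 kept genes were fitted with limma 3.58.1 (R 4.3.3, mean-variance trend, two-sided), group as the only term, Benjamini-Hochberg adjustment over all kept genes and calls at an adjusted p under 0.05. edgeR 4.0.16 and DESeq2 1.42.0 on recovered reads were alternatives, as were other scalings, pseudocounts and filters, a replicate block, and leaving out each library; a lone library is then assumed to vary like the others. The members, lists and roles were chosen with earlier results of these data known. Named genes are all 30 members, CDCA8, the 5 called genes of smallest p in each direction of the 2 further lists, and markers by level. SUSD6, TIGAR and COP1 were matched by older symbols, and KRT5, TP63, PTPRC and CDH5 were not analysed here. One further marker of the prostate list is not reported here.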

Additional observations from a re-analysis of the deposited data

How the results depend on the processing

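The counts of p53 target genes depended on how the libraries were scaled. Against 5 higher and 12 lower as deposited, 9 were higher and 6 lower with median-ratio scaling, with scaling to the reads in the gene rows, with quantile normalization and with edgeR, and 8 were higher and 6 lower with DESeq2. Their median log2 fold change was then 0.0578, 0.0718, 0.0296, 0.0405 and 0.0465. Over all kept genes, 2224 were called higher as deposited and 3931 with median-ratio scaling. Pseudocounts of 0.25 and 5 and a filter of 5 RPM kept 5 higher and 12 lower, and without a filter 4 were higher and 12 lower, with TP53INP1 and CCNG1 no longer called and EDA2R, from 0 to 6 reads a library, called lower. Leaving out 1 library, as deposited or with median-ratio scaling (the latter chosen after seeing the data), gave 4 to 9 higher, 4 to 11 lower and medians from -0.288 to 0.126.

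In the same order of scalings, signs turned for MDM4 (0.228, 0.241, 0.197, 0.244 and 0.249), PPM1D (0.072, 0.085, 0.0344, 0.0748 and 0.0812), CDKN1A (0.286, 0.30, 0.382, 0.28 and 0.286), PLK3 (0.0175, 0.0295, 0.0296, 0.012 and 0.0181), BBC3 (0.0874, 0.10, 0.065, 0.0921 and 0.0969) and AEN (0.16, 0.174, 0.107, 0.158 and 0.164). Quantile normalization kept the sign of MDM2 and FDXR, and the 4 other scalings turned it (MDM2 0.0578, 0.0718, 0.0405 and 0.0465, and FDXR 0.00696, 0.0208, 0.00164 and 0.0070). Why the libraries differed in scale was not tested. Over all fits that left out a library, values ranged from -0.404 to 0.249 for MDM2, -0.144 to 0.281 for MDM4, -0.283 to 0.172 for PPM1D, -0.521 to 0.158 for CCNG1, -0.0515 to 0.35 for CDKN1A, -0.292 to 0.0922 for PLK3, -0.301 to 0.174 for BBC3, -0.217 to 0.194 for AEN, -0.377 to 0.0723 for SPATA18, -0.0892 to 0.373 for XPC and -0.354 to 0.0338 for FDXR.

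The libraries of both groups carry the numbers 1 and 2, and nothing in the labels says that a number marks a shared culture or day. Deviations of same-numbered libraries from their group means correlated at 0.31 over 11833 genes. With a replicate block 5 of the p53 target genes were higher and 13 lower, the added one being MDM2 (adjusted p = 0.00454, against 0.0109 to 0.988 over its other alternatives), and their median was -0.25. With 2 libraries a group the error of each gene rests largely on the spread shared across genes, and the low counts of SFN, TNFRSF10C and EDA2R limit what could be seen in them.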
